A study of Mus musculus with 12 samples.

Results

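The germline and early-embryo genes are 38 mouse genes that germ cells, the oocyte or the early embryo normally use and that most somatic cells keep silent. They were chosen by name, and their values were read from every probe set that the deposited annotation assigned to one of these symbols alone, with no limit on expression. Values were read for 36 of the 38 genes, from 43 probe sets, among 20670 genes with a probe set of their own. Ctcfl, a germline relative of the insulator protein CTCF, and Tuba3a, a testis tubulin, were not analysed on their own here. A probe set reached a signal of 20 on at least 1 array for 7 genes, namely Rhox5, Usp17la, Sycp2, Tdrkh, Brdt, Asz1 and Dppa4. Of these 7, Asz1 and Dppa4 reached it on 1 array each, and neither did after quantile normalisation. The other 29 measured genes stayed below that signal on all 12 arrays in the probe sets of their own. The 2 probe sets that Tuba3b shares with Tuba3a were above 20 on all 12 arrays and are not counted here. The matching count over all 20670 genes is not given here, so 7 of 36 is not compared with other genes.

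RNA came from 10T1/2 cells, a mouse mesenchymal stem cell line, and from 3T3-L1 cells, mouse preadipocytes that can turn into fat cells. Cells received siRNA against Setdb1 (5 arrays), Mbd1 (1 array) or Mcaf1 (1 array), or a negative control siRNA called si-Ctr (5 arrays), by transfection at seeding and again when differentiation began. They were harvested after 48 hr (10T1/2) or 36 hr (3T3-L1) in adipogenic culture with dexamethasone (0.25 µM), which acts on the glucocorticoid receptor, or before it, at 0 hr. The si-Setdb1 and si-Ctr arrays form 5 pairs, which are 10T1/2 at 48 hr, 10T1/2 at 0 hr, 3T3-L1 of experiment A at 36 hr, and 3T3-L1 at 0 hr in experiments A and B. The arrays for si-Mcaf1 and si-Mbd1 belong to experiment B in 3T3-L1 and are titled 0 hr, although another label gives them 36 hr of dexamethasone. Each line is an established culture. The labels used here give no genotype, strain, age or sex for either line, and none of these was compared. The labels do not say whether the arrays of 1 siRNA came from separate cultures beyond the experiment letters. Array-to-array spread could therefore be technical in part. The 5 pairs differ in line, time or experiment and are not replicates of 1 condition. Their p-values reflect how the si-Setdb1 difference varied between those conditions as well as between arrays.

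Setdb1 is a histone methyltransferase that places trimethylation on lysine 9 of histone H3, a mark of silent chromatin. Mcaf1, now named Atf7ip, binds Setdb1 and supports its activity, and Mbd1 binds methylated DNA and can bring both to it. In somatic cells many germline genes are held silent by DNA methylation of CpG-rich promoters, by H3K9 methylation, and by a Polycomb complex that contains E2f6, Pcgf6, Mga and Max and reaches promoters through E2F sites and E-boxes. The members fall into roles: genes of the piRNA pathway, in which small RNAs guide the silencing of transposons in germ cells; genes that build meiotic chromosomes; germ cell RNA, transcription and chromatin factors; Rhox homeobox genes, a family on the X chromosome used in the testis, ovary and placenta; early-embryo genes; and testis surface, energy and tubulin genes.

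A total of 4 promoters are printed, those of the 2 members that stood out on the array labelled si-Mcaf1 and those of 2 members that hold both motifs searched for. Each window holds the 250 bases before the gene's start in RefSeq, on build GRCm38.p6. In the first pair the capitals mark every CpG, the site at which mouse DNA is methylated. Rhox5 (chrX:37754358-37754607, plus strand) had 4 CpGs and Usp17la (chr7:104856766-104857015, plus strand) had 1. In the second pair the capitals mark the E-box CACGTG, read the same on both strands, and the E2F core GCGGGA on either strand, which reads TCCCGC on the other. Ddx4 (chr13:112652311-112652560, minus strand) and Mael (chr1:166238745-166238994, minus strand) hold both motifs and never reached a signal of 20.
Rhox5: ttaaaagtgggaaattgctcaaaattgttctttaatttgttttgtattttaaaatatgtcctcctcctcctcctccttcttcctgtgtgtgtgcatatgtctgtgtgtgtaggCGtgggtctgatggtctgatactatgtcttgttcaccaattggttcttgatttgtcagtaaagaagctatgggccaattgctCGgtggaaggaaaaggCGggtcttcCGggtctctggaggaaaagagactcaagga
Usp17la: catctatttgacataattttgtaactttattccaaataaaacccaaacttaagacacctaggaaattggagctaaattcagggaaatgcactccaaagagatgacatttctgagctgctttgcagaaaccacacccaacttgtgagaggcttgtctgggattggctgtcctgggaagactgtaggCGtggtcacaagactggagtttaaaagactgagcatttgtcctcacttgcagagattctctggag
Ddx4: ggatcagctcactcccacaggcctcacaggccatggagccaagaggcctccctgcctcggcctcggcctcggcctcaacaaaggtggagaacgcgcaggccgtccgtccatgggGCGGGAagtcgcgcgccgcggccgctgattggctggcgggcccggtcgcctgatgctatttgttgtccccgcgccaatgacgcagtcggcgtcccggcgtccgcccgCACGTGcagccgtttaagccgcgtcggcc
Mael: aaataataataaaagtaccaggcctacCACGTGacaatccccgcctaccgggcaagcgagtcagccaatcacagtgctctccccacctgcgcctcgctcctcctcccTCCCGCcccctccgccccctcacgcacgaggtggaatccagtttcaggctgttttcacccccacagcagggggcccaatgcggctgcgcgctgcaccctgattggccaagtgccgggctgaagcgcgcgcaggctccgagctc

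RefSeq windows were matched for 30 of the 38 members, and the same 250 bases were read for 27025 genes in all. CACGTG was present in 14 of the 30 member windows (46.7%), against 6.05% of all genes. GCGGGA was present in 10 of 30 (33.3%), against 16.9% of all genes, and both motifs in 4 of 30 (13.3%; Ddx4, Hormad1, Mael and Sycp3), against 1.47%. The median CpG count was 14.5 in the members and 6 over all genes. Of the 6 matched members that reached 20, 1 held CACGTG (Brdt) and 0 held GCGGGA. Of the 23 matched members that never reached 20, 13 held CACGTG and 9 held GCGGGA. The median CpG count was 11 in the members that reached 20 and 15 in those that did not. The first set spans 1 to 19 CpGs, with Usp17la at 1, Rhox5 at 4 and Sycp2 at 7, against Asz1 at 15, Brdt at 16 and Tdrkh at 19. The second set spans 8 to 31. These counts are a description with no test, and a match shows letters, not binding. The split at 20 uses signals of different probe sets, which do not order the genes by expression. Rhox5 is known to use a proximal and a distal promoter, and the window covers the start that RefSeq gives.

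**Figure D1:**
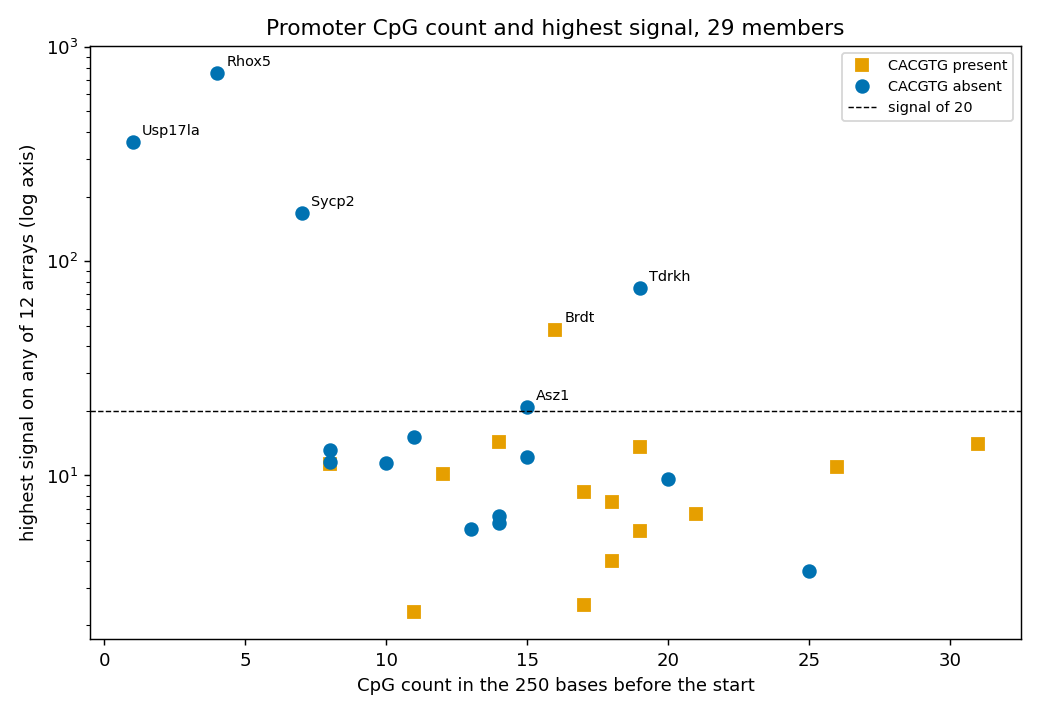
Number of CpGs in the 250 bases before the start (horizontal) and the highest deposited signal on any of the 12 arrays (vertical, log axis) for the 29 members with both, 1 point per gene. Squares hold the E-box and circles do not, the dashed line is a signal of 20, and the 3 highest readings, Rhox5, Usp17la and Sycp2, lie at 4, 1 and 7 CpGs. Readings of different probe sets do not order the genes by expression.

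Signals are the deposited intensities, scaled to a trimmed mean of 100 on each array, and they differ between probe sets for reasons other than expression, so a level is tested only within 1 probe set and signals of different probe sets are printed as readings. The median probe set read 14.9 to 18 on the 4 arrays of experiment B, against 11.2 to 12.1 on the other 8. Differences are on the log2(signal + 0.8) scale after quantile normalisation, which understates the change of dim genes, and tests used limma over the 12402 genes that passed a filter on dim genes, with Benjamini-Hochberg adjustment and a threshold of 0.05. Both lines carried the markers of mesenchymal cells, with 8 of 8 (among them Vim, Pdgfra and Col1a1) at 126.9 to 11009.3 on every array. Of 7 defining germ cell markers, 3 of which are members, only Zp3 reached 20, with 23.3 on an si-Ctr array. Their summed signal was 27.9 to 64.7 with si-Setdb1, 48.8 with si-Mcaf1 and 31.6 with si-Mbd1, against 24.2 to 65.6 on the si-Ctr arrays. None of 5 markers of pluripotent cells reached 20. In RNA from whole cultures, a few cells with much of a transcript and many cells with little of it cannot be told apart.

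Setdb1, Mbd1 and Atf7ip were read to test the labels. The brightest probe set of Setdb1 read 143 to 209 on the arrays labelled si-Setdb1, against 120.5 to 179.8 on the si-Ctr arrays, and so was not lower. A dim one read 0.4 to 9.9, against 1.6 to 24.4, and was lower in each of the 5 pairs. Another dim one read 7.3 to 22.1, against 6 to 11.7, and was higher in each of the 5 pairs. Mbd1 had a signal of 144 with si-Mbd1, against 306.2 with si-Ctr in experiment B. Atf7ip, the Mcaf1 gene, had a signal of 154.5 on the array labelled si-Mcaf1, against 159.6 with that si-Ctr, so this library does not show the loss its label names, and directions below are those of the arrays as labelled.

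Rhox5, a homeobox transcription factor best known from Sertoli and epididymal cells, was the member called with si-Setdb1. It read 755.8 on the array labelled si-Mcaf1, 39.8 with si-Mbd1 and 112.9 with si-Setdb1 in experiment B, against 34.5 on the si-Ctr array that all 3 share. In the other pairs it read 11.9 with si-Setdb1, against 6.4 with si-Ctr, in 10T1/2 at 48 hr, and 12.8 against 5.6 in 10T1/2 at 0 hr. In 3T3-L1 it read 67.0 with si-Setdb1, against 19.8 with si-Ctr, at 36 hr, and 76.7 against 15 at 0 hr in experiment A. Every si-Setdb1 array was above its own control, although the groups overlapped across lines because the 10T1/2 arrays were low with either siRNA.

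Rhox5 rose with si-Setdb1 by 1.52 ± 0.22 on the log2 scale (SE, 5 pairs; limma, adjusted p = 0.0468). It was the 1 called member of the 6 that passed the filter, beside 1.1% of all genes tested. The 5 pair differences were 0.82 and 1.06 in 10T1/2 and 1.65, 2.22 and 1.85 in 3T3-L1, in the pair order given above. The call is close to the threshold. Without any 1 of the 5 pairs the estimate was 1.34 to 1.69 and the adjusted p 0.0845 to 0.136, and without the pair as a block the adjusted p was 0.659. In 3T3-L1 at 0 hr alone, with 2 arrays a group, the difference was 2.04 ± 0.35 (SE; limma, adjusted p = 0.652). There 0 of the 6 members were called, beside 0.0161% of all genes. An unadjusted p under 0.05 was found for 2 members (Rhox5 and Sycp2), beside 674 of the 12402 genes tested (limma).

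On the array labelled si-Mcaf1, Rhox5 was 4.76 above the si-Ctr array of experiment B on the log2 scale, a ratio of 21.9 between the deposited signals. This difference ranked 2 of 12402 genes on that array. The same difference was 1.85 on the si-Setdb1 array, which ranked 108, and 0.26 on the si-Mbd1 array, which ranked 2342. With 1 array there is no replicate, and the fit borrowed its spread from the rest of the 0 hr arrays in 3T3-L1 with 1 residual degree of freedom. It gave 4.85 ± 0.23 (SE; limma, adjusted p = 0.339), with 0% of all genes called and 905 genes at an unadjusted p under 0.05. Of the other Rhox genes with a probe set of their own, only Rhox4b reached 20. Rhox6 read 0.2 to 7.6, Rhox9 1.0 to 16.6 and Rhox13 0.3 to 4.4 over the 12 arrays, and with si-Mcaf1 these 3 were at 4.4, 16.6 and 0.8, against 1.0, 14.1 and 2.1 with si-Ctr in experiment B. The Rhox4b probe set, which near-identical copies can share, read 990.2 to 1196.4 in 10T1/2 and 238.8 to 340.4 in 3T3-L1, the reverse of the order of Rhox5 between the lines. Another probe set, shared by 7 Rhox4 genes and a predicted gene, read 0.5 to 6.4.

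**Figure D2:**
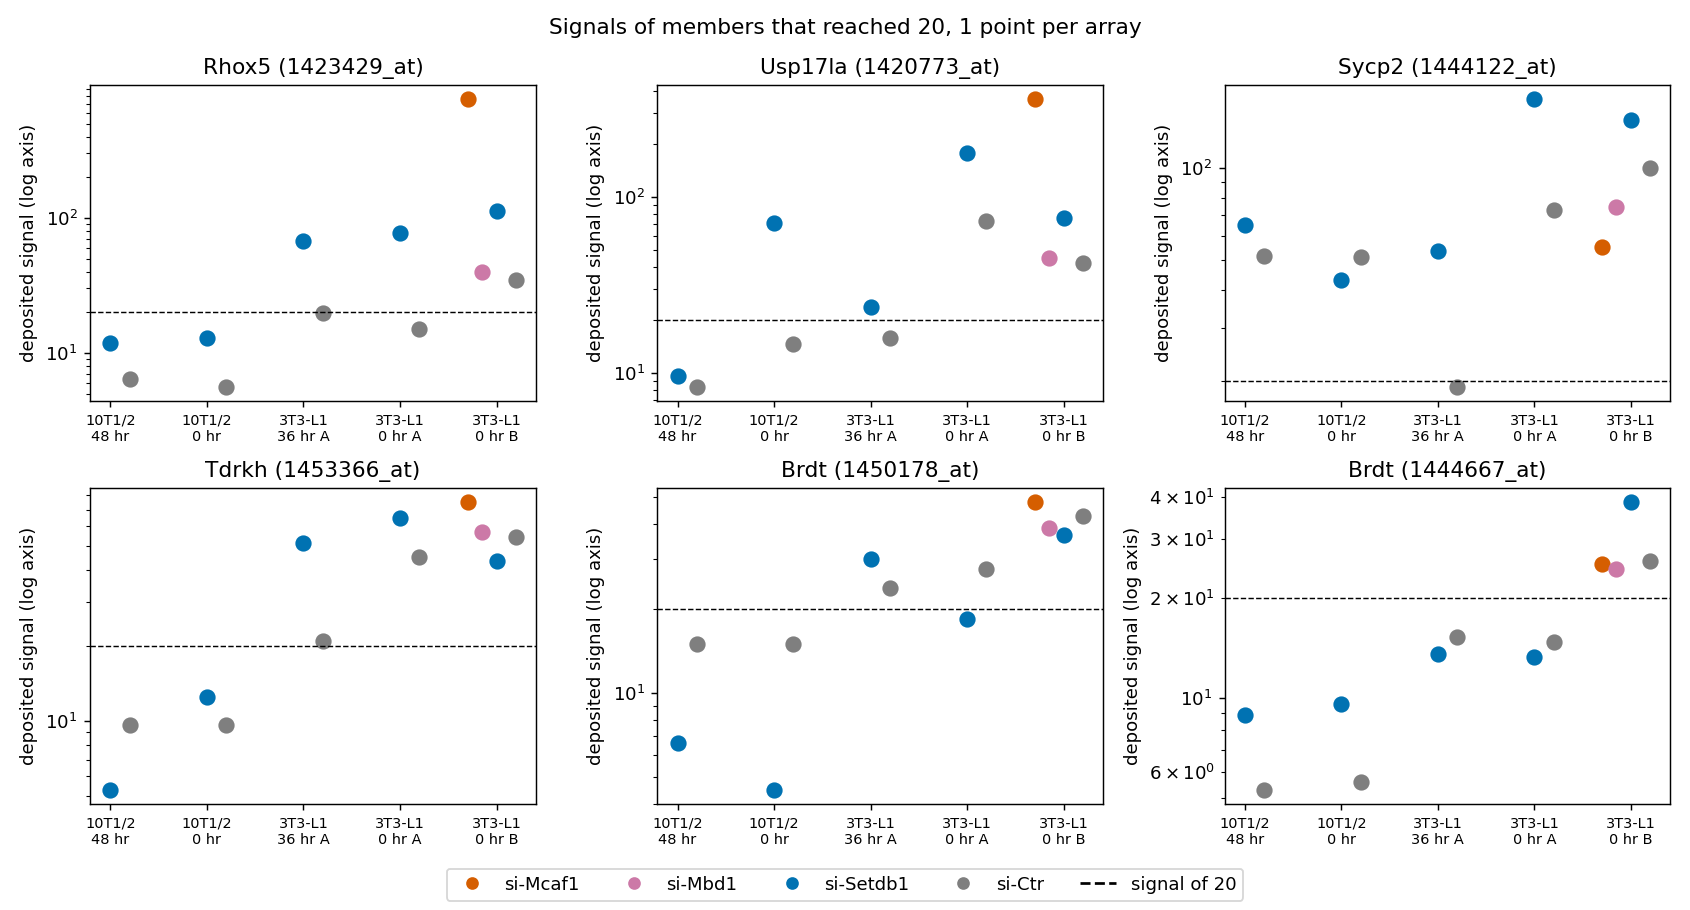
Deposited signal (log axis) of 6 probe sets that reached 20, with 1 point per array, by line, time in hr and experiment letter; colours give the siRNA as labelled and the dashed line is a signal of 20. Rhox5 lies above its si-Ctr array in all 5 si-Setdb1 pairs, and the si-Mcaf1 array stands highest for Rhox5 (755.8) and Usp17la (359.4).

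Usp17la, a deubiquitinating enzyme of the Usp17-like family listed here with the early-embryo genes, was the other member that stood out on the array labelled si-Mcaf1. It read 359.4 there, 45.0 with si-Mbd1 and 76.0 with si-Setdb1, against 42.1 on the shared si-Ctr array. With si-Setdb1 it read 9.6, 70.7, 23.6 and 177.9 in 10T1/2 at 48 hr and 0 hr and in 3T3-L1 of experiment A at 36 hr and 0 hr, against 8.3, 14.5, 15.8 and 72.8 with si-Ctr. The si-Setdb1 array was the higher of the pair in 5 of 5 pairs, by 0.16 to 2.12 on the log2 scale, but the groups overlapped. The mean difference of 1.0 ± 0.28 (SE, 5 pairs) did not pass (limma, adjusted p = 0.117).

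On the array labelled si-Mcaf1 Usp17la was 3.32 above si-Ctr on the log2 scale, 8.54 times its deposited signal, and ranked 7 of 12402. The fit with the borrowed spread gave 3.40 ± 0.23 (SE; limma, adjusted p = 0.339). A pair of probe sets shared by the relatives Usp17lc and Usp17ld read 0.1 to 4.2 on all arrays. Of the 6 tested members, 2 (Rhox5 and Usp17la) were at least 2-fold higher on the array labelled si-Mcaf1, beside 2.77% of all genes. On the si-Mbd1 array 0 of 6 were, beside 2.17%, and on the si-Setdb1 array of experiment B 2 of 6 were (Rhox5 and Asz1), beside 3.43%. These counts are of rises alone, and on the array labelled si-Mcaf1 Sycp2 differed by -0.98 on the log2 scale. The 3 arrays share 1 si-Ctr array, so their differences are not independent. The fit for si-Mbd1 called 0% of all genes with limma, 666 at an unadjusted p under 0.05, and for the 6 members gave differences of -0.26 to 0.36.

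**Figure D3:**
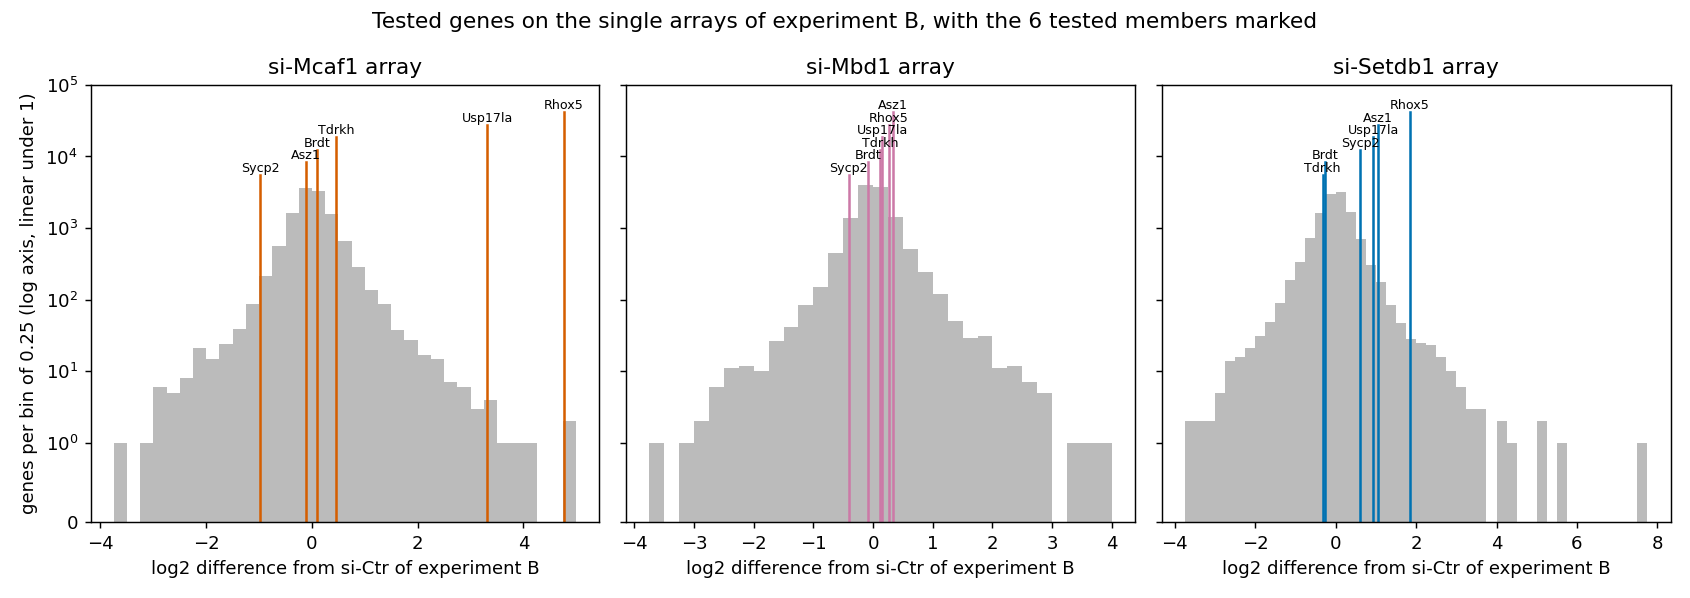
Number of tested genes (vertical, log axis that is linear under 1) by log2 difference from the si-Ctr array of experiment B, in bins of 0.25, for the si-Mcaf1, si-Mbd1 and si-Setdb1 arrays, with the 6 tested members as coloured lines. Rhox5 (4.76) and Usp17la (3.32) lie in the right tail on the si-Mcaf1 array, and all 6 members lie between -0.41 and 0.34 on the si-Mbd1 array.

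Among the genes of meiotic chromosomes, Sycp2, a protein of the axes along which homologous chromosomes pair, was the 1 of 9 that reached 20. It read 65.1, 42.9, 53.5, 167.7 and 144.0 on the si-Setdb1 arrays, against 51.6, 51.1, 19.2, 73.0 and 100.1 on the si-Ctr arrays, in the pair order given above. It was higher with si-Setdb1 in 4 of 5 pairs, all but 10T1/2 at 0 hr, and the groups overlapped. The difference was 0.67 ± 0.24 (SE, 5 pairs; limma, adjusted p = 0.182). It read 55.2 on the array labelled si-Mcaf1 and 74.7 with si-Mbd1, against 100.1 with si-Ctr in the same experiment. Its partners stayed dim. Sycp1, which joins the paired axes, read 0.1 to 8.4, Sycp3, another axis protein, 3.1 to 10.2, and Hormad1, which marks unpaired axes, 0.5 to 5.5. The meiotic cohesin subunits Stag3 and Smc1b read 0.4 to 11 and 0.4 to 3.6. The recombination genes Mei1, Tex11 and Tex15 read 0.2 to 11.6, 0.2 to 5.4 and 0.3 to 10.8.

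Of the 11 piRNA pathway and germ granule genes, Tdrkh and Asz1, both proteins of the mitochondrial surface where piRNAs are processed, reached 20. Tdrkh read 5.3, 12.5, 51.4, 64.9 and 43.7 on the si-Setdb1 arrays, against 9.6, 9.6, 20.8, 45.2 and 54.3 on the si-Ctr arrays, with 3 of 5 pairs higher (0.19 ± 0.30, SE; limma, adjusted p = 0.733). It read 74.8 on the array labelled si-Mcaf1 and 56.7 with si-Mbd1, so its high values were in 3T3-L1 whichever siRNA was used. Asz1 passed 20 on 1 array only, with 20.9 on the si-Setdb1 array of experiment B, against 9.0 on its si-Ctr array. On the other 11 arrays it read 4.0 to 10.4, and its second probe set read 0.6 to 7.1. Over the 5 pairs its difference was 0.25 ± 0.27 (SE; limma, adjusted p = 0.617).

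The remaining 9 genes of this pathway were dim. Ddx4, the helicase that marks germ cells, read 0.3 to 14.0, and Mael, a piRNA factor of germ granules, 0.2 to 4.0. Mov10l1, a helicase that feeds piRNA precursors into processing, read 0.7 to 13.6, and Piwil2, an Argonaute protein that carries piRNAs, 0.4 to 8.3. The Tudor proteins Tdrd1 and Tdrd9 read 0.1 to 2.3 and 0.4 to 11.3, and the chaperone partner Fkbp6 0.8 to 2.5. Stk31, a Tudor-domain kinase-like protein, read 0.1 to 6.6 over its probe sets, and Tex19.1, a germ cell and placenta protein, 0.5 to 12.2.

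Brdt, the testis bromodomain protein that binds acetylated histones, had 3 probe sets that did not move together. The brightest read 6.6, 4.5, 30.0, 18.4 and 36.5 with si-Setdb1, against 14.9, 14.9, 23.6, 27.7 and 42.8 with si-Ctr, and was lower in 4 of 5 pairs (-0.64 ± 0.28, SE; limma, adjusted p = 0.244). The next read 8.9, 9.6, 13.5, 13.3 and 38.6 with si-Setdb1, against 5.3, 5.6, 15.2, 14.7 and 25.8 with si-Ctr, and was higher in 3 of 5. The third read 0.1 to 4.0. With si-Mcaf1 the first 2 read 47.9 and 25.3, against 42.8 and 25.8 with si-Ctr in experiment B. Of the other factors of this role, Dazl, an RNA-binding protein of germ cells, read 0.1 to 9.6, Taf7l, a germ cell subunit of the general transcription factor TFIID, 0.5 to 14.4, and D1Pas1, a testis helicase, 0.1 to 15.1.

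Dppa4, a nuclear protein of the early embryo and of mouse embryonic stem cells, reached 20 on 1 array only, with 20.2 on the array labelled si-Mcaf1, against 12.6 with si-Ctr in experiment B. It read 9.1, 6.3, 8.0, 10.7 and 13.3 on the si-Setdb1 arrays, against 1.2, 6.3, 3.8, 3.4 and 12.6 on the si-Ctr arrays. After quantile normalisation it was higher with si-Setdb1 in 3 of 5 pairs. It did not pass the filter on dim genes and has no test in the main analysis. Dppa3, which protects methylation in the early embryo, read 1.4 to 12.2. Of the testis surface, energy and tubulin genes, the 6 with a probe set of their own stayed below 20 on it. Tex101, a sperm-cell surface protein, read 0.5 to 6.5, Dpep3, a membrane dipeptidase, 0.7 to 11.4, and Spaca1, a protein of the acrosome membrane, 0.2 to 5.6. Slc25a31, a germ cell ADP/ATP carrier, read 0.1 to 7.5, Ldhc, the lactate dehydrogenase of sperm, 0.2 to 13.2, and Tuba3b 0.4 to 6.0. A probe set that matches both Tuba3a and Tuba3b read 131.7 to 174.4 in 4 of the si-Setdb1 arrays and 124.8 in 10T1/2 at 48 hr, against 94.7 to 125.1 on the si-Ctr arrays. It was higher in 5 of 5 pairs by a mean of 0.41 (log2; limma over every probe set, adjusted p = 0.412), and it cannot be assigned to either gene. The other probe set that matches both read 34.6 to 75.3 over the 12 arrays. It was higher with si-Setdb1 in 4 of 5 pairs, by a mean of 0.34 (limma over every probe set, adjusted p = 0.547), with -0.11 in 10T1/2 at 48 hr.

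**Figure D4:**
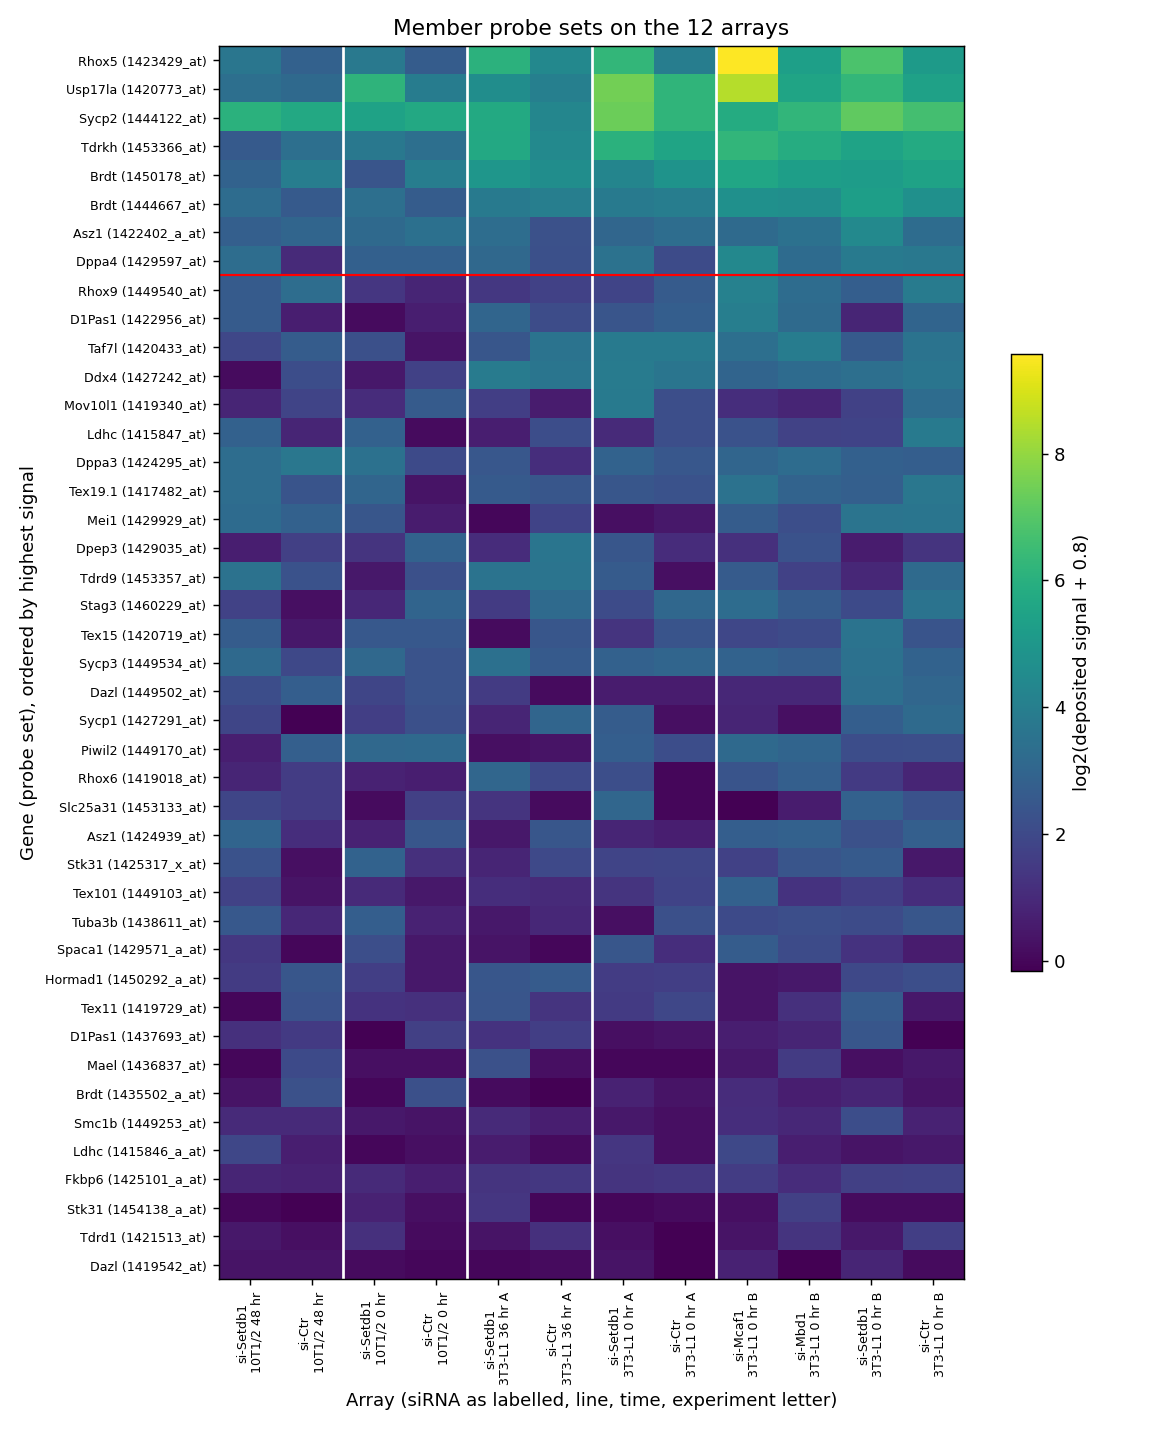
Log2(deposited signal + 0.8) of the 43 member probe sets (rows, ordered by highest signal) on the 12 arrays (columns, by line, time in hr, experiment letter and siRNA as labelled). The red line separates the 8 probe sets that reached a signal of 20 from the 35 that did not, and white lines separate the conditions.

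The 35 dim probe sets are those that stayed below 20 on every array, so a probe set that an siRNA took to 20 is not among them, and their directions are a description of the rest. Their mean difference with si-Setdb1 over the 5 pairs was above 0 in 15 of 35, with a median of -0.04, and pair by pair 13 to 19 of 35 were above 0. On the array labelled si-Mcaf1 15 of 35 were above si-Ctr, and on the si-Mbd1 array 17 of 35. The probe set of Spaca1 was the 1 of the 35 that was higher with si-Setdb1 in all 5 pairs, at signals of 0.5 to 4.7 against 0.2 to 1.4. Their median signal was 2.6 to 4.1 on the 4 arrays of experiment B and 1.0 to 2.6 on the other 8, and the median of all probe sets was higher there too. The part of that difference in the members' signals was not tested. The members just below a signal of 20 were Rhox9 at 16.6, D1Pas1 at 15.1 and Taf7l at 14.4, and those just above it were Dppa4 at 20.2 and Asz1 at 20.9. All 3 genes just below read highest in experiment B, as did Dppa4 and Asz1. With no filter on dim genes all 36 measured members were tested with limma, and 0 were called with si-Setdb1, beside 0 of all 20670 genes and 2819 of them at an unadjusted p under 0.05.

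**Figure D5:**
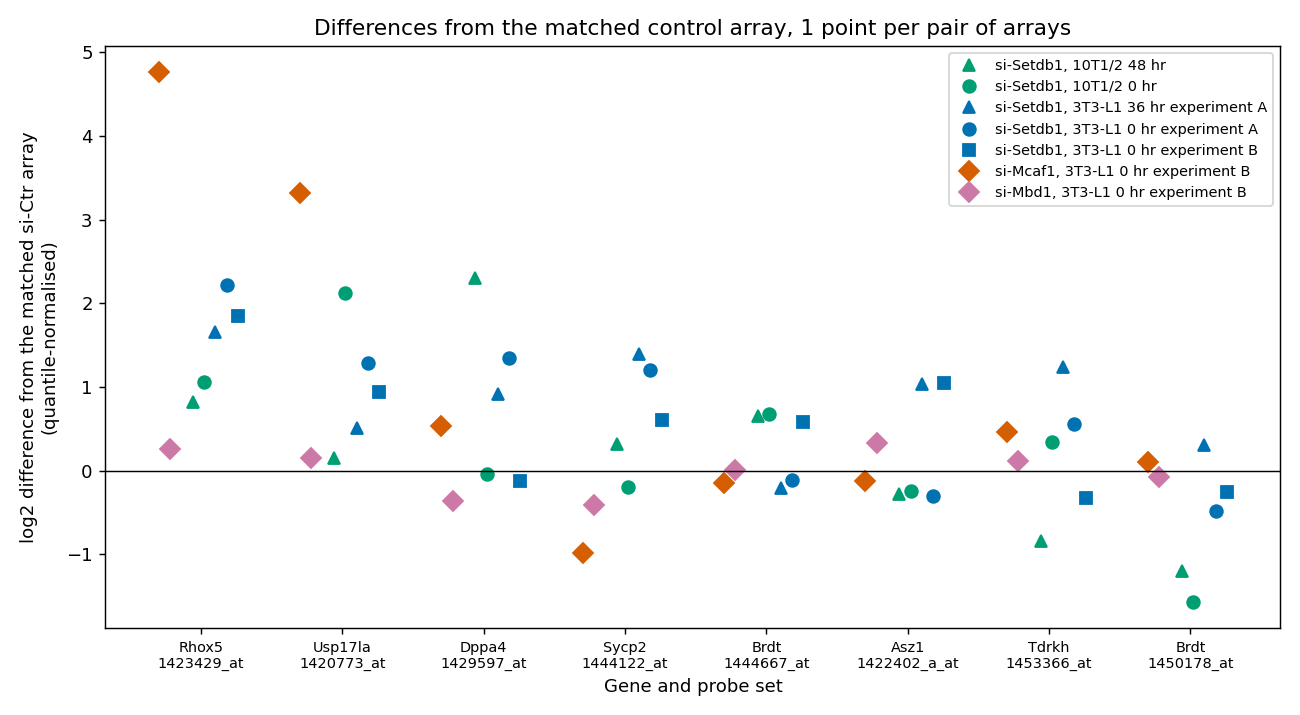
Log2 difference from the matched si-Ctr array after quantile normalisation (vertical) for the 8 probe sets that reached 20, with 1 point per pair of arrays; colours and shapes give siRNA, line, time and experiment. For Rhox5 and Usp17la all 5 si-Setdb1 points are above 0 and the si-Mcaf1 point is the highest. The points of Sycp2, Dppa4, Brdt, Asz1 and Tdrkh lie on both sides of 0.

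More members, and more of all genes tested, were called between the lines than with any siRNA. Between 10T1/2 and 3T3-L1 of experiment A, with siRNA and dexamethasone as terms, 4 of the 6 tested members were lower in 10T1/2 and 0 were higher, beside 32.2% of all genes called in either direction. Tdrkh read 5.3 to 12.5 on the 4 arrays of 10T1/2, against 20.8 to 64.9 on the 4 arrays of 3T3-L1, with a difference of -2.09 ± 0.31 on the log2 scale (SE; limma, adjusted p = 0.00505). Rhox5 read 5.6 to 12.8 in 10T1/2, against 15 to 76.7 in 3T3-L1, with a difference of -1.89 ± 0.24 (SE; limma, adjusted p = 0.00289). The brightest Brdt probe set read 4.5 to 14.9 in 10T1/2, against 18.4 to 30.0 in 3T3-L1 (-1.33 ± 0.30, SE; limma, adjusted p = 0.0196). In these 3 genes the lines did not overlap. The share of all genes tested that also did not overlap is not given here, so this is not a trait of the members. Usp17la read 8.3 to 70.7 in 10T1/2, against 15.8 to 177.9 in 3T3-L1 (-1.39 ± 0.34, SE; limma, adjusted p = 0.0243), with overlapping ranges. Sycp2 (-0.16) and Asz1 (0.10) did not pass. With no filter on dim genes 4 of the 36 members tested were called lower in 10T1/2, beside 2498 of 20670 genes in either direction. The shares are similar, and the 4 were Ddx4, Fkbp6, Rhox5 and Tdrkh. Ddx4 averaged 1.75 in 10T1/2, against 12.72 in 3T3-L1 of experiment A, and Fkbp6 0.98 against 1.8. The 4 arrays of a line are 1 for each siRNA and time, not replicates of the line. The 10T1/2 arrays carry no experiment letter and these 3T3-L1 arrays are all of experiment A, so line cannot be told apart from experiment. The later times differ between the lines, and at 0 hr alone Tdrkh was the 1 member called.

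Whether the si-Setdb1 difference itself differed between the lines was tested with an interaction term. For Rhox5 it was smaller in 10T1/2 by 0.97 ± 0.23 on the log2 scale (SE), and this did not pass (limma, adjusted p = 0.461). The term called 0% of all genes with limma, 1030 at an unadjusted p under 0.05, and among them 3 members, Rhox5, Brdt and Sycp2.

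After dexamethasone 0 of the 6 tested members were called, beside 0.766% of all genes. An unadjusted p under 0.05 was found for 2 members (Usp17la and Tdrkh), beside 2588 of the 12402 genes tested (limma). Usp17la read 9.6 and 8.3 after dexamethasone in 10T1/2 with si-Setdb1 and si-Ctr, against 70.7 and 14.5 before it. In 3T3-L1 it read 23.6 and 15.8 after, against 177.9 and 72.8 before. It was lower in 4 of 4 pairs, with a mean of -2.08 ± 0.36 (SE; limma, adjusted p = 0.0866), and passed with a pseudocount of 20 (-1.34, adjusted p = 0.0438). Tdrkh differed by -0.64 (limma, adjusted p = 0.212). Rhox5 differed by 0.03 ± 0.14 (SE; limma, adjusted p = 0.928).

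A wider list of 90 germline and early-embryo genes held 74 with a probe set, of which 9 passed the filter and 7 reached a signal of 20. The share of all genes that reached 20 is not given here. None of the 9 was called with si-Setdb1, si-Mbd1 or si-Mcaf1 or after dexamethasone (limma). On the single arrays, Gdf9, an oocyte growth factor, was 3.30 above si-Ctr on the log2 scale with si-Mcaf1 (21.4 against 1.2, rank 8) and 2.96 above it with si-Mbd1 (14 against 1.2, rank 5), with no replicate. The shared si-Ctr reading of 1.2 was the lowest of all arrays. Gdf9 also read 11.9 with si-Setdb1 in experiment B, and 6.7 to 42.5 on the si-Ctr arrays outside experiment B. With si-Setdb1 over 5 pairs 5 of 9 were above 0, with a median of 0.02, against 0.002 over all genes. Between the lines, Rhox4b and Gdf9 were higher in 10T1/2 (1.87 and 1.36, limma, adjusted p = 2.386e-04 and 0.00261), and Sohlh1, a germ cell transcription factor, was lower (-1.0, limma, adjusted p = 0.0435). These are 3 of 9, beside the 32.2% of all genes called between the lines. Of 20 repressors known at germline promoters, 19 passed the filter and 1 was called with si-Setdb1, beside 1.1% of all genes, which was Atf7ip itself. It read 358.9 to 502.6 on the si-Setdb1 arrays, against 105.9 to 187.3 on the si-Ctr arrays, without overlap, and rose by 1.66 ± 0.11 on the log2 scale (SE, 5 pairs; limma, adjusted p = 0.0192). This call too is lost without any 1 pair and with no filter, where 0 genes passed. The brightest Setdb1 probe set was at 270.9 on the array labelled si-Mcaf1, against 144.8 with si-Ctr in experiment B. Between the lines E2f6, Rnf2 and Dnmt3b were higher in 10T1/2 (0.88, 0.94 and 0.79) and Pcgf6 and Ehmt2 were lower (-0.48 and -0.61), with adjusted p of 0.00113 to 0.0243 (limma). These are 5 of 19, beside the same 32.2% of all genes.

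The 5 genes whose levels were most like Rhox5 over the 12 arrays were Catsper2, a subunit of the sperm calcium channel, with a Pearson r of 0.89, Atp2a2, the calcium pump of the endoplasmic reticulum, with 0.887, 6430590A07Rik with 0.876, the kinase Gsk3a with 0.876 and 5830469G19Rik with 0.876. Without the array labelled si-Mcaf1 these were 0.884, 0.904, 0.871, 0.740 and 0.877. Catsper2 read 64.7 on that array and 23.0 to 54.6 on the others, a far narrower range than that of Rhox5. The correlations are a description over arrays that share lines and experiments.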

How the data were processed

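Total RNA was labelled as biotinylated cRNA and hybridised to 12 Affymetrix arrays, per the labels' protocols. The authors deposited 1 linear intensity (signal) per probe set and array, and the values show that each array was scaled to a trimmed mean of 100, leaving out 2% at each end. The software behind them and any detection calls are not stated in those labels. Both tables held the same values, and the log2 ratios that the authors deposited beside them were not used.

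The main values were log2(signal + 0.8), quantile normalised because the arrays' log2 medians differed by up to 0.65. A gene was read from its probe set with the highest mean, and genes with a mean below a signal of 7.69 (percentile 40) were dropped. Tests used limma 3.58.1 (lmFit, eBayes; R 4.3.3), with Benjamini-Hochberg adjustment over 12402 genes. The pair was the block for si-Setdb1 over 5 pairs and for dexamethasone over 4 pairs, and the experiment letter was the block for the single arrays. Pairs come from line, time and the experiment letter of the titles, and 10T1/2 arrays carry no letter. Over genes, experiment A minus B correlated between si-Setdb1 and si-Ctr with r = 0.427.

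Dim probe sets were described without a test in the main analysis, and were tested only where the filter was left out. Every member is named, members that reached 20 or were called in the main analysis are given in full, and other lists give the genes called. The members and lists were chosen with earlier results of these data known. Promoter windows are RefSeq's for GRCm38.p6, and no build is stated for the probe annotation in the sources used here. Alternatives were the pseudocount, the scaling, the filter, the probe set rule, the block and leaving out pairs or arrays. The script was tested on simulated data.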

Additional observations from a re-analysis of the deposited data

Results flagged for a closer look

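The dexamethasone differences of Sycp2 had opposite signs in the 2 lines. After minus before, on the log2 scale, it was 0.604 with si-Setdb1 and 0.08 with si-Ctr in 10T1/2, and -1.519 with si-Setdb1 and -1.713 with si-Ctr in 3T3-L1. In signals, 10T1/2 read 65.1 and 51.6 after dexamethasone, against 42.9 and 51.1 before it, and 3T3-L1 of experiment A read 53.5 and 19.2, against 167.7 and 73.0. Both pairs of 3T3-L1 were lower after dexamethasone, while in 10T1/2 1 pair was higher and the si-Ctr pair was nearly level. This difference between the lines was not tested. The later time is 48 hr in 10T1/2 and 36 hr in 3T3-L1.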

How the results depend on the processing

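The call of Rhox5 with si-Setdb1 over 5 pairs held with a pseudocount of 20, with array medians in place of quantiles and with an intensity trend. The count of members called was 0 with no filter, with every probe set tested singly, with a filter at the 60th percentile (which leaves out Rhox5), with the mean of a gene's probe sets and with no replicate block, and 0 to 0 when any pair was left out, against 1 in the main analysis. Over these settings the Rhox5 difference was 0.92 to 1.69. All genes called were 136, against 735 with a pseudocount of 20, 880 with a trend, 843 at the 60th percentile, 6 with the mean of probe sets, 10 with no replicate block, and 0 with no filter, with every probe set or without any 1 pair. With array medians the 136 calls (55 higher, 81 lower) became 195 (52 higher, 143 lower). In 3T3-L1 at 0 hr 2 genes were called, against 5 with a pseudocount of 20, 38 with medians, 1 with the experiment letter as a replicate block, and 0 with no filter or without either si-Ctr array, with 0 members throughout. For the array labelled si-Mcaf1 a pseudocount of 20 called 2 members, Rhox5 and Usp17la (adjusted p 2.338e-08 and 3.924e-06), and 96 genes, against 0 and 0. After dexamethasone a pseudocount of 20 called 1 member, Usp17la, and 428 genes, against 0 and 95. The dexamethasone count was 0 with no filter and 1 to 14 without any 1 pair. The interaction of si-Setdb1 with line called 24 genes with a pseudocount of 20, and si-Mbd1 1. Between the lines the 0 hr arrays alone called 1 member, Tdrkh, and 907 genes, against 4 and 3997. No filter called 4 of 36 members, Ddx4, Fkbp6, Rhox5 and Tdrkh, and 2498 of 20670 genes. Every probe set tested singly called 3 of 36 members, Ddx4, Rhox5 and Tdrkh, and 3620 of 45037 probe sets. Tdrkh passed in all 7 settings of that comparison, Rhox5 in 6, Brdt in 4 and Usp17la in 3. Members reaching the level were 21 at a signal of 10, 4 at 50 and 5 on quantile-normalised signals, against 7. Asz1 and Dppa4 were lost on quantile-normalised signals, at 15.66 and 14.94 on their highest arrays. No member difference called in the main analysis changed sign under any alternative run. Among differences not called, those of Asz1 and Tdrkh (si-Setdb1), Brdt (si-Mcaf1) and Rhox5 (dexamethasone) did. Causes of these changes were not tested. The si-Mbd1 and si-Mcaf1 arrays have no replicate, signals of a few units lie near the pseudocount, and without detection calls a dim signal cannot be read as absence.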
